A study of Mus musculus with 6 samples.

Results

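Long noncoding RNAs are long transcripts that are not known to be translated into protein. Some act in the nucleus as scaffolds of nuclear bodies or in the silencing of neighbouring genes, and others are mainly the carriers of small nucleolar RNAs (snoRNAs) or microRNAs, which are cut out of their introns or exons. In heart muscle cells such transcripts are studied as stress-responsive RNAs, among them Malat1, H19, Miat and the p53-induced Trp53cor1. The set described here held 199 expressed long noncoding RNAs out of 22913 genes with reads. They were selected on measured values, as rows annotated lincRNA, antisense, processed transcript, sense intronic or sense overlapping with a mean of at least 2 CPM (counts scaled to the total of the library) over 6 libraries. The rule left out genes on chromosomes X and Y and 5 named noncoding RNAs (Yam1, Gm26917, Rmrp, Rpph1 and Rn7sk). In all, 2860 rows carried these annotation types at any level. Just inside the limit lay Trerf1, Gm20625 and Gm13544 at 2.02, 2.03 and 2.03 CPM, and just outside lay Foxd2os, RP23-363M4.1 and 9330020H09Rik at 1.99, 1.97 and 1.97 CPM.

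The cells were HL-1, an immortal mouse line derived from atrial heart muscle. One group of 3 libraries came from cells given a control plasmid, and the other group of 3 from cells given a plasmid for overexpression of HSPA1A, an inducible chaperone of the heat shock protein 70 family, which one label calls human. Both plasmids were introduced with a lipid reagent and the cells were harvested after 48 h. Polyadenylated RNA was sequenced. No label ties the replicates to separate cultures, and the p-values reflect how far these libraries spread, and that spread may be technical.

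Total counts ran from 23849656 to 26897086 per library. The mouse Hspa1a row held 10 to 17 counts in control and 11 to 20 in HSPA1A libraries, overlapping ranges, and how many reads of a human plasmid transcript would align to mouse genes was not tested. Of 12 atrial muscle markers, 6 reached 1 CPM (Myl4, Tnnt2, Gja5, Gata4, Nkx2-5 and Mef2c), while Actc1, Tnni3, Ryr2 and Tbx5 held at most 6 counts in any library. Myl7 and Sln had no row among the genes with reads. The summed level of the listed atrial markers was 79.4 to 87.6 CPM in control against 76.6 to 102 CPM in HSPA1A libraries. Its largest parts were Tnnt2 and Gata4, at means of 40.5 and 32.5 CPM over all libraries. Of 6 fibroblast markers, 4 reached 1 CPM, with sums of 396 to 414 CPM in control against 373 to 395 CPM in HSPA1A libraries. None of the endothelial markers reached 1 CPM, and 1 leukocyte marker (Cd68) did. HSPA1A replicate 2 stood nearer to the control libraries than to the other HSPA1A libraries: its counts differed from theirs by chi-square values per degree of freedom of 21.8 and 26.1, and from the controls by 8.21 to 11.004. Results that turn on it are given with and without it.

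By annotation type the 199 members were 92 lincRNAs, 61 processed transcripts, 39 antisense RNAs, 4 sense intronic and 3 sense overlapping RNAs. In the GENCODE M21 annotation of GRCm38, 195 were found by gene identifier, and 186 of these kept a long noncoding type. Another 6 are protein coding there (Gm867, BC029722, 9930104L06Rik, 5830428H23Rik, Inafm2 and Gm2115), and 3 have another type. Among those with a noncoding type, Cct6a, Ptpmt1, Tmem134, Abhd1, Tctn2, Trerf1, Spata5l1 and Trmt61b bear the names of coding genes. GENCODE places no separate coding gene over any of these on the same strand, so such rows may be the coding genes themselves under a noncoding type. How far they count reads of coding transcripts was not tested. The median exonic length was 2483 bases, from 408 to 93092 bases, and 34 members had a single exon block. A coding gene was overlapped on the other strand by 75 members, 58 of them within exons, and a further 19 started head to head with a coding gene within 1 kb. Exons were shared with a coding gene on the same strand by 18 members. The sources used here do not give a strand setting for the counting, so reads of these members cannot be told apart from reads of the overlapping genes. Annotated snoRNAs lay inside 21 members, 42 snoRNAs in all.

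The sequences that set the hosts of small RNAs apart are shown first, because they are what these members are known for. Mature microRNAs of the RefSeq table (GRCm38.p6) lay inside 7 members, 32 in all. The main arms are printed 5′ to 3′ with the seed, bases 2 to 8, in capitals. Mir17hg (chr14:115042879-115046727, plus strand) carries the miR-17-92 cluster, a set of growth-promoting microRNAs, and 2 pairs of its microRNAs share a seed:
miR-17-5p: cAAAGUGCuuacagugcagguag
miR-20a-5p: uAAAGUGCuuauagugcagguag
miR-18a-5p: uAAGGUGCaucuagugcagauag
miR-19a-3p: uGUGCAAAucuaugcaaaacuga
miR-19b-3p: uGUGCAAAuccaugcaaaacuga
miR-92a-3p: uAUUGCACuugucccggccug
Dleu2 (chr14:61602839-61682373, minus strand) carries a pair with 1 shared seed, known for holding back cell division:
miR-15a-5p: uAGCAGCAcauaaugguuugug
miR-16-5p: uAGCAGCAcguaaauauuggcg
The transcript 6720427I07Rik (chr13:48532905-48546500, minus strand) holds 3 members of the let-7 family, again with 1 seed:
let-7a-5p: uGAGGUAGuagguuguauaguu
let-7d-5p: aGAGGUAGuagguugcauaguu
let-7f-5p: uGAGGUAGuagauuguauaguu
The remaining hosts carried microRNAs of unlike seeds. These were 2610203C20Rik (chr9:41327077-41716994, plus strand) with miR-100, let-7a-2-3p and miR-125b, Mir22hg (chr11:75461539-75466676, plus strand) with miR-22, H19 (chr7:142575529-142578143, minus strand) with miR-675, and Snhg20 with miR-6516:
miR-100-5p: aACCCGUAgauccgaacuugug
miR-125b-5p: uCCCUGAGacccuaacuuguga
miR-22-3p: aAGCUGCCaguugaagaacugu
miR-675-5p: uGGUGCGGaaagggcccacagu

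Host transcripts of snoRNAs are known for a run of pyrimidines at their start, the feature that also marks messenger RNAs of ribosomal proteins. RefSeq promoters were matched by symbol for 111 members (130 promoters), and 12 of the 15 listed snoRNA hosts had an entry. A C followed by at least 4 further C or T letters, beginning within 10 bases of the annotated start, was present at 1 or more annotated starts of 8 of these 12 hosts (66.67%), of 47 of the 111 members and of 34.4% of all 27025 genes in the table. The windows below show 15 bases before the start and 25 from it on, with the run in capitals:
2410006H16Rik: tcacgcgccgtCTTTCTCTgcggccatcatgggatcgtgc
Snhg12: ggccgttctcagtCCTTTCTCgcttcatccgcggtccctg
Gas5: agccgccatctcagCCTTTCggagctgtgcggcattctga
Snhg8: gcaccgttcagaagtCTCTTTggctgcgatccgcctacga
1110038B12Rik: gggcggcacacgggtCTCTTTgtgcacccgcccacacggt
Snhg5: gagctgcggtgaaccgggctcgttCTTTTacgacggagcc
For contrast, no such run was present at the other annotated start of Gas5, nor at the starts of Snhg17 and Snhg20:
Gas5: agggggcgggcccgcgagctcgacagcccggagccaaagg
Snhg17: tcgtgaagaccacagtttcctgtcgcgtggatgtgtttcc
Snhg20: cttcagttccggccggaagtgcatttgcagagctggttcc
A match is a description of the letters in this window, and a start annotated a few bases away would move it.

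In level the members spanned more than 3 orders of magnitude per length. Together they took 0.423% to 0.440% of all counts in each library, and the 6 most abundant members took 42.04% to 44.98% of those. The median member stood at 6.03 CPM, with 92 members between 2 and 5 CPM, 36 at 20 CPM or more and 8 at 100 CPM or more. In counts, which are not corrected for length, the leading members were RP23-110C17.2 at 659 CPM, Cct6a at 437 CPM, 2410006H16Rik at 228 CPM, Malat1 at 217 CPM, Gm20427 at 211 CPM and Neat1 at 165 CPM. Cct6a bears the name of a coding gene, a chaperonin subunit, but its row is annotated as a processed transcript. In GENCODE the row has 15 exon blocks and no separate coding gene over it on the same strand. Its reads may therefore be those of the chaperonin messenger RNA. Gm20427 shares 3503 exonic bases with coding genes on its own strand.

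Per length, in the deposited FPKM (fragments scaled by transcript length and library size), snoRNA hosts led the order. The highest was 2410006H16Rik (chr11:62602877-62604807, plus strand, holding Snord49a, Snord49b and Snord65) at 458 FPKM, followed by 1110038B12Rik (chr17:34950238-34952471, minus strand) at 246 FPKM. Then came RP23-110C17.2 at 168, Cct6a at 165, Gas5 at 74.1 and Snhg5 at 71.2 FPKM. The median member stood at 2.81 FPKM, against 6.99 FPKM for the tested protein-coding genes. The abundant nuclear RNAs dropped in rank on this scale, with Malat1 at 28.7 and Neat1 at 7.37 FPKM. Kcnq1ot1, a single block of 93092 bases that silences imprinted neighbours in cis, was lowest at 0.0667 FPKM. In all, 40 members reached 10 FPKM and 169 reached 1 FPKM.

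**Figure D1:**
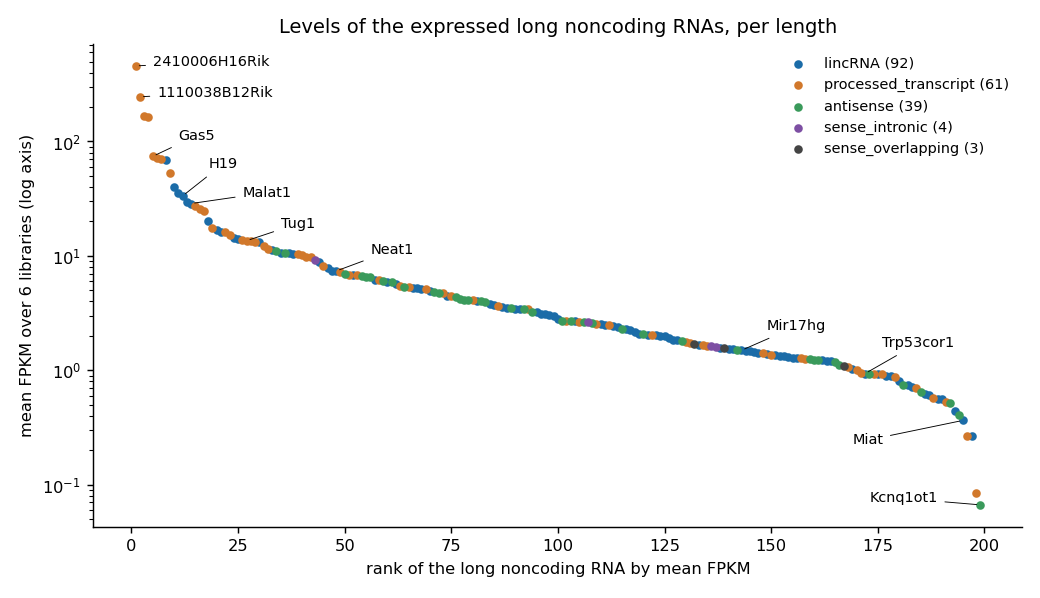
Mean FPKM over 6 libraries (log axis) against rank for the 199 members, with points coloured by annotation type. The levels run from 458 FPKM for 2410006H16Rik to 0.0667 FPKM for Kcnq1ot1, and most of the highest points are processed transcripts.

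Between HSPA1A and control cells no member was called. Of the 199 members, 0 passed an adjusted p of 0.05 in edgeR's quasi-likelihood test (Benjamini-Hochberg) over all 12827 tested genes, where 0.179% of all tested genes were called. Fold changes were small, with log2 values from -0.52 for Platr14 to 0.63 for Trp53cor1. At an unadjusted p under 0.05, 8 members (4.02%) were higher in HSPA1A cells, against 4.33% of all tested genes, and 4 (2.01%) were lower, against 4.26%. DESeq2 called 1 member (Neat1), with 0.499% of all tested genes called. The 95% interval lay within a 1.5-fold change in either direction for 157 members and within a 2-fold change for 198, all but Platr14. All 199 members passed the filter on low counts.

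**Figure D2:**
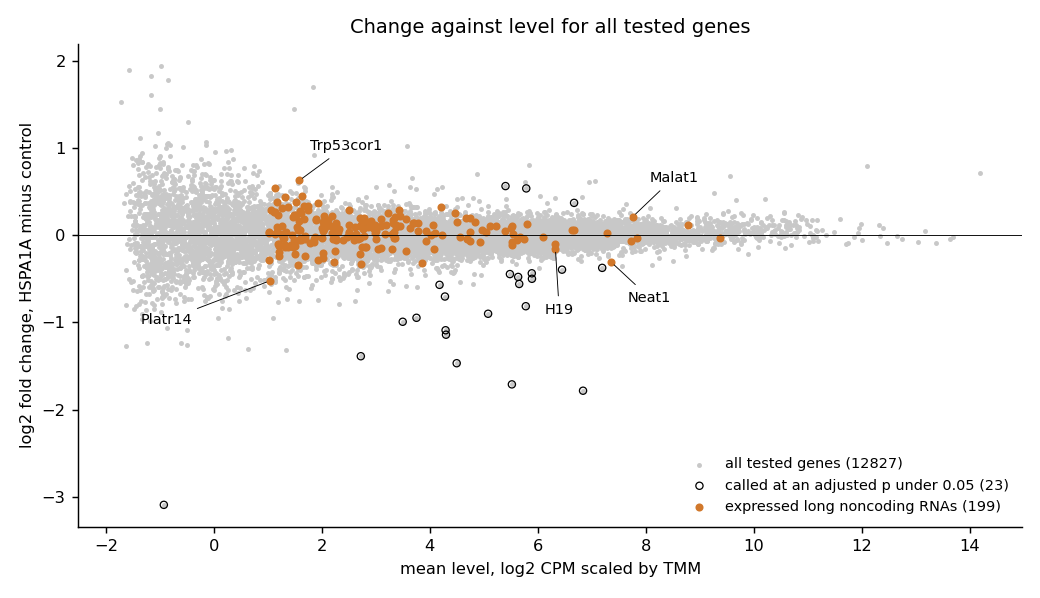
Log2 fold change, HSPA1A minus control, against mean level in log2 CPM for all 12827 tested genes (grey), the 23 called genes (open circles) and the 199 members (orange). The members lie between -0.52 and 0.63, and none is among the called genes.

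The median log2 fold change of the members was 0.04, against 0.0029 over all tested genes, with 122 members positive and 77 negative. On library totals, which lack the TMM factors, the median was 0.0080 for the members beside -0.03 for all tested genes. In the deposited FPKM plus 1 it was -0.0093 for the members beside -0.0099 over all 22833 genes of that table. All 3 HSPA1A libraries lay above all 3 controls for 20 members (10.05%), against 7.3% of all tested genes, and below them for 7 members (3.52%), against 7.17%. By type the medians were 0.06 for lincRNAs, 0.07 for antisense RNAs and 0.01 for processed transcripts. By position they were 0.11 for the 19 head-to-head members, 0.04 for the 75 on the strand opposite a coding gene and 0.04 for the 101 others. These are counts and medians of a set chosen by level, read beside those of all genes and not tested as a set.

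The largest difference belonged to Trp53cor1 (lincRNA-p21, chr17:29057430-29079179, minus strand), a p53-induced RNA that lies next to the cell cycle inhibitor gene Cdkn1a. Its level was 2.48, 2.20 and 2.38 CPM in the control libraries and 3.46, 3.87 and 3.60 CPM in the HSPA1A libraries. Every HSPA1A library, replicate 2 included, was above every control. The log2 fold change was 0.63 ± 0.15 (SE, n = 3 each), with an unadjusted p of 0.00169 and an adjusted p of 0.285 in edgeR's quasi-likelihood test, so it did not pass the threshold. Its neighbour Cdkn1a, 11797 bases away, stood at 287 to 311 CPM in control against 308 to 332 CPM in HSPA1A libraries, with a log2 fold change of 0.11. The Trp53cor1 values rest on 55 to 105 reads per library.

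Neat1 (chr19:5824708-5845478, minus strand), the RNA scaffold of nuclear paraspeckles, had the smallest p among members that were lower. It measured 175, 185 and 187 CPM in the control libraries and 132, 144 and 165 CPM in the HSPA1A libraries. The groups did not overlap, and HSPA1A replicate 2 lay between the other HSPA1A libraries. The log2 fold change was -0.31 ± 0.08 (SE, n = 3 each) with an adjusted p of 0.308 in edgeR's quasi-likelihood test. DESeq2 gave an adjusted p of 0.0260, and edgeR without a filter on low counts gave 0.000174, where 0.895% of all 22913 genes were called, so the call rests on the method. Neat1 is made in a short polyadenylated form and a long form without a tail, and the gene table does not separate them.

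Among the rest with an unadjusted p under 0.05, RP24-328P2.5 (Gm20559 in GENCODE, chr6:3333194-3346128, minus strand) was higher in all HSPA1A libraries. It measured 16.6, 17.3 and 15.1 CPM in control against 21.4, 18.5 and 21.2 CPM in HSPA1A libraries, without overlap. The log2 fold change was 0.32 ± 0.09 (SE, n = 3 each) with an adjusted p of 0.361 in edgeR's quasi-likelihood test. The nearest coding gene, Samd9l, is an interferon-induced antiviral gene 26129 bases away and had a log2 fold change of 0.26 with an unadjusted p of 0.00301 in the same edgeR fit. The RefSeq promoter of RP24-328P2.5 (chr6:3346092-3346391, minus strand, GRCm38.p6) is shown because this pair of neighbours had differences of the same sign. The signs were also the same in 87 of all 159 pairs of a member and a tested nearest coding gene, and a shared cause was not tested. The window holds 250 bases before the annotated start and 50 from it on. Capitals mark TATAAA on the opposite strand (read as TTTATA), which here lies across the start and not upstream of it. They also mark the letters GAAACT, here after the start, a piece of the element bound by interferon-responsive factors:
RP24-328P2.5: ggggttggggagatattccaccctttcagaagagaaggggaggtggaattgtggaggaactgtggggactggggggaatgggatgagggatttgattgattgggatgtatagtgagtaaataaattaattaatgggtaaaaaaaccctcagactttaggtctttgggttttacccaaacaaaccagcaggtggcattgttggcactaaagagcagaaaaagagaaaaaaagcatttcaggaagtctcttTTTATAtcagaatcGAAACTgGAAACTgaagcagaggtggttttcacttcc
GAAACT occurs 2 times here, a search chosen after the sequence was read, and the table's other 2 windows for this transcript are shifted by a few bases and hold the same letters. On either strand GAAACT occurred at least 2 times in 1.507% of all promoters in the table and in 1.575% of the 127 member promoters left without RP24-328P2.5, and TATAAA occurred in 13.62% and 10.24%. A match is no evidence of binding.

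The other members in this range were mostly little-studied transcripts. Gm7160, head to head with Zcchc2 at 124 bases, measured 2.44, 3.17 and 2.23 CPM in control against 3.93, 3.25 and 3.56 CPM in HSPA1A libraries. Bach2os, antisense to the transcription factor gene Bach2, measured 2.29, 2.65 and 2.53 against 2.86, 3.28 and 3.60 CPM. The row named Hist2h2bb, a lincRNA called Gm42743 in GENCODE that shares 226 exonic bases with the histone gene, measured 1.43, 2.004 and 1.97 against 2.60, 2.62 and 2.61 CPM. In each of these 3 the HSPA1A libraries were all above the controls, by a small margin for Gm7160. Gm6634, RP23-134H19.3 and 1110002L01Rik had log2 fold changes of 0.26, 0.22 and 0.20, and the groups of 1110002L01Rik overlapped.

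On the lower side, Gm867 (chr10:75937723-75940672, minus strand, protein coding in GENCODE and overlapping Chchd10) measured 15.8, 16.03 and 16.5 CPM in control against 11.3, 15.6 and 11.6 CPM in HSPA1A libraries. HSPA1A replicate 2 lay just below the lowest control, and the other HSPA1A libraries lay well below it. The antisense RNA 6330403L08Rik, which overlaps 813 exonic bases of the growth factor gene Pdgfa, measured 7.17, 7.05 and 8.02 against 6.14, 6.35 and 5.17 CPM. Platr14 measured 2.82, 2.004 and 2.46 against 1.28, 2.14 and 1.61 CPM, with overlap. None of the 12 had an adjusted p under 0.285 in edgeR's quasi-likelihood test.

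**Figure D3:**
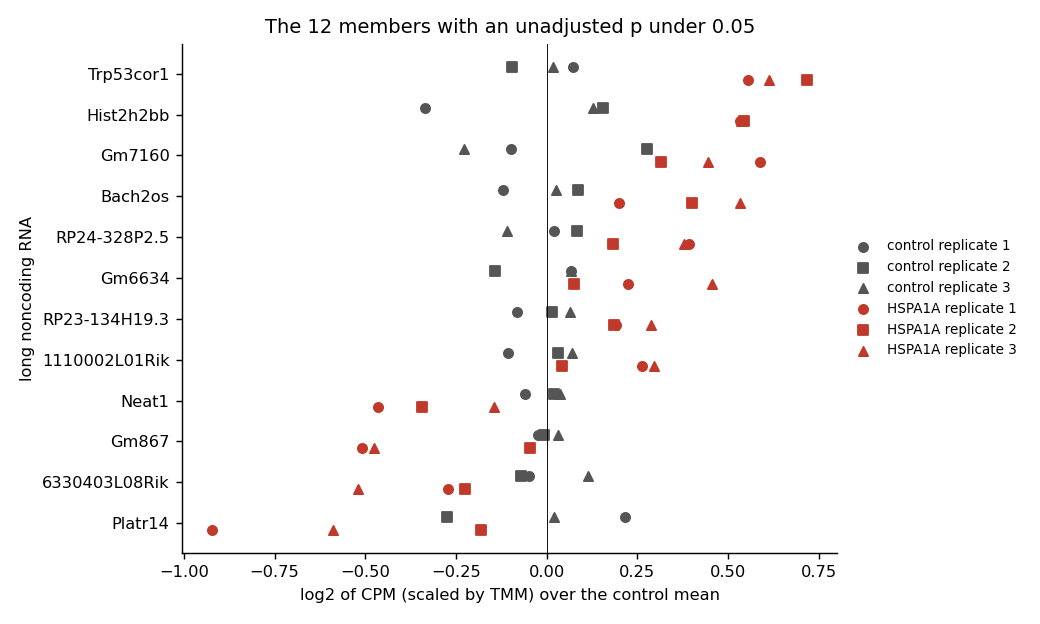
Level in each library of the 12 members with an unadjusted p under 0.05, as log2 of CPM over the control mean, with 1 row per member, grey for control, red for HSPA1A, and marker shape for the replicate. The groups overlap for 1110002L01Rik and Platr14, and the widest separation is that of Trp53cor1.

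The snoRNA hosts, whose introns release snoRNAs that guide the modification of ribosomal RNA, differed little between the groups. Of 15 listed hosts, 0 were called in edgeR's quasi-likelihood test, where 0.179% of all tested genes were called. An unadjusted p under 0.05 was reached by 0 hosts, against 8.59% of all tested genes. With so few hosts, these counts do not set them apart from other genes. Only HSPA1A replicates 1 and 3 lay above the control range for 5 of the 15, against 1753 of 12827 tested genes. Their median log2 fold change was 0.0051, from -0.10 for Snhg5 to 0.15 for Gm11974 (Snhg15). Gas5, a growth-arrest RNA that holds 10 annotated snoRNAs, measured 63.8, 68.3 and 73.3 CPM in control against 69.5, 57.0 and 76.6 CPM in HSPA1A libraries. The groups of Gas5 overlapped, and HSPA1A replicate 2 was the lowest library. The same library was the lowest of 6 for 8 of the 15 hosts, against 21.04% of all tested genes. Snhg17 was the steadiest host, between 47.0 and 50.8 CPM. Snhg12, Snhg6 and 1110038B12Rik were above the control range in HSPA1A replicates 1 and 3 and below it in replicate 2. The last of these lies 3965 bases from Hspa1b and measured 154, 151 and 155 CPM in control against 167, 145 and 158 CPM in HSPA1A libraries, a log2 fold change of 0.03 ± 0.06 (SE, n = 3 each).

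**Figure D4:**
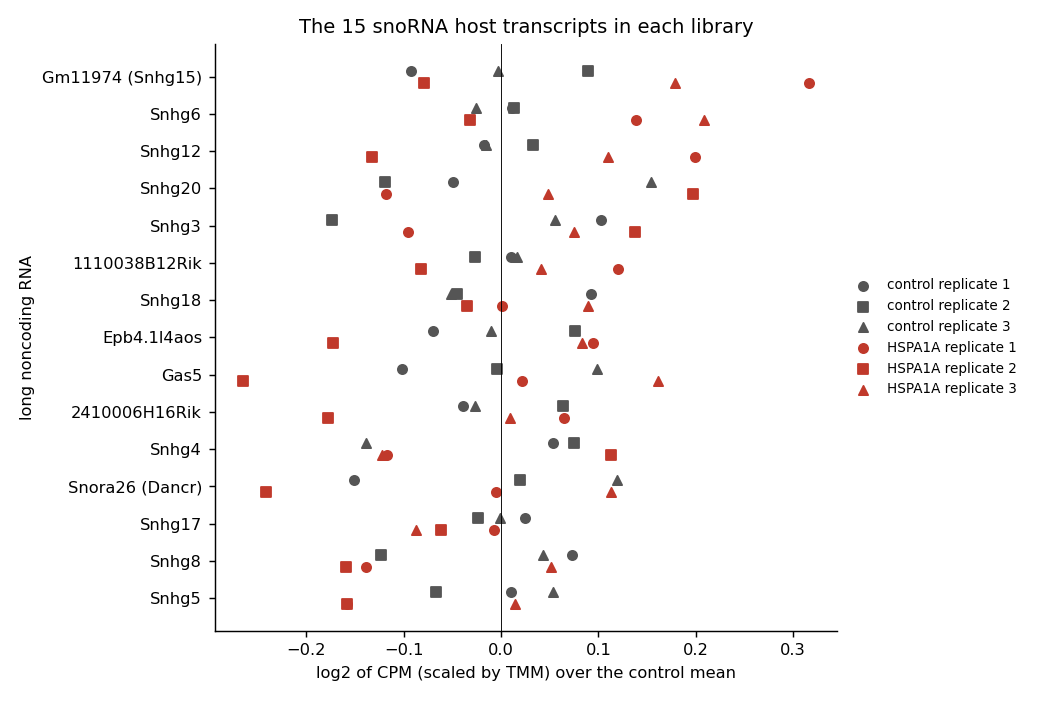
Level in each library of the 15 snoRNA hosts as log2 of CPM over the control mean, drawn as in the plot of the 12 members. All but 1 point (Gm11974 in HSPA1A replicate 1) lie within 0.3 of the control mean, and HSPA1A replicate 2 (red squares) is the lowest point for 8 hosts.

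MicroRNA hosts also showed no called difference. Dleu2 measured 3.79, 3.57 and 2.65 CPM in control against 3.80, 4.58 and 4.51 CPM in HSPA1A libraries, without overlap but by a narrow margin, with a log2 fold change of 0.37 ± 0.17 (SE, n = 3 each) and an unadjusted p of 0.0525 in the edgeR fit across all genes. Mir17hg stood between 5.13 and 6.45 CPM in all 6 libraries and Mir22hg between 23.0 and 28.7 CPM, with log2 fold changes of 0.02 and -0.04. The host of let-7a, let-7d and let-7f, 6720427I07Rik (-0.05), and the host of miR-100, let-7a-2-3p and miR-125b, 2610203C20Rik (-0.02), were as close to 0. Levels of the host transcripts do not give levels of the microRNAs, which poly(A) libraries do not measure.

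Of the imprinted transcripts, H19, a maternally expressed RNA abundant in fetal muscle, was the highest. It measured 97.2, 71.9 and 84.4 CPM in control against 63.8, 103 and 60.8 CPM in HSPA1A libraries. HSPA1A replicates 1 and 3 were below every control and replicate 2 above every control. The log2 fold change was -0.15 ± 0.18 (SE, n = 3 each). Peg13, expressed from the paternal copy within Trappc9, had -0.15, and Kcnq1ot1 had -0.05, between 4.99 and 7.41 CPM in all libraries. Listed imprinted RNAs below the level limit included Meg3 with 2 reads in all, Rian at 0.327 CPM and Airn at 0.640 CPM.

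The nuclear RNAs were led by Malat1 (chr19:5795690-5802672, minus strand), a component of nuclear speckles whose end is a triple helix and not a poly(A) tail. It measured 233, 172 and 197 CPM in control against 242, 151 and 307 CPM in HSPA1A libraries, the lowest and the highest of the 6 both being HSPA1A libraries. The log2 fold change was 0.22 ± 0.20 (SE, n = 3 each). Malat1 varied 2.04-fold over the libraries, 1 of 7 members past a 2-fold range, where the median member varied 1.35-fold. The RNAs that the rule left out also differed between libraries. Yam1, a noncoding RNA annotated opposite ribosomal RNA sequence, stood at 18439, 11559 and 12144 CPM in control against 27521, 15703 and 26012 CPM in HSPA1A libraries. The 3 libraries highest in Yam1 were the 3 highest in Malat1. How many other genes share this was not counted, and a link between the RNAs was not tested. With Yam1 (log2 level) as a covariate the Malat1 log2 fold change was -0.44, and that of Neat1 was -0.28. HSPA1A replicates 1 and 3 stood highest in Yam1, so a fit of 6 libraries cannot separate Yam1 from the group. Rmrp (1.08 to 2.29 CPM in control, 3.87 to 7.34 in HSPA1A libraries) and Rn7sk (6.32 to 10.5 and 12.6 to 19.7), which have no poly(A) tail, were also higher in each HSPA1A library than in any control, and their part in these results was not tested.

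Other chromatin and nuclear RNAs had no called difference over all 6 libraries. Of the 8 listed nuclear body and chromatin RNAs, Malat1 and Neat1 included, 4 were above the control range only in HSPA1A replicates 1 and 3. The same held for 1753 of 12827 tested genes. The listed 1810026B05Rik is among the members called higher without HSPA1A replicate 2. Pvt1, the neighbour of Myc, measured 29.2, 31.0 and 31.2 CPM in control against 32.6, 28.9 and 34.0 CPM in HSPA1A libraries. Hotair, transcribed in the HoxC cluster, stood between 3.89 and 4.69 against 4.35 and 5.63 CPM, with a log2 fold change of 0.23, and Hotairm1 of the HoxA cluster had 0.06. Tug1, a p53-linked RNA, measured 98.5, 95.5 and 96.9 CPM in control against 99.0, 99.2 and 105 CPM in HSPA1A libraries. The Tug1 groups did not overlap, yet its log2 fold change was 0.06 ± 0.05 (SE, n = 3 each) and its unadjusted p 0.247 in the edgeR fit across all genes. Crnde, an RNA raised in many tumours, had -0.09.

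RNAs linked to heart disease or inflammation were few at this level. Miat, named for its link to myocardial infarction, measured 4.24, 3.85 and 3.06 CPM in control against 2.99, 4.13 and 3.43 CPM in HSPA1A libraries. The row 5830416P10Rik (Mirt1 in GENCODE), an RNA described after infarction, measured 1.99, 2.52 and 1.82 against 2.73, 3.51 and 2.32 CPM, with a log2 fold change of 0.44 ± 0.21 (SE, n = 3 each) and overlapping groups. Ptgs2os2, near the prostaglandin synthase gene Ptgs2, had 0.10. The 5 listed inflammation-linked members had a median of 0.10, which was -0.19 with Yam1 as a covariate. Fendrr, a lung and heart developmental RNA, had 1 read in all, and AW112010, an RNA of activated immune cells, stood at 0.190 CPM.

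Without HSPA1A replicate 2 the picture of the members changed. The same edgeR test then called 11 members higher (5.53%), against 5.27% of all 12955 genes tested, and 3 lower (1.51%), against 4.94%. Higher were Trp53cor1, AA465934, Malat1, Gm26619, RP24-328P2.5, Gm6634, 5430416N02Rik, 1110002L01Rik, 1810026B05Rik, Cct6a and Snhg12, and lower were Neat1, H19 and Gm867. In this fit of 2 against 3 libraries the log2 fold changes were 0.45 ± 0.10 (SE) for Malat1 with an adjusted p of 0.00976 and -0.44 ± 0.09 (SE) for H19 with an adjusted p of 0.00587, both in edgeR's quasi-likelihood test. The smallest adjusted p in this edgeR fit among those named was that of 5430416N02Rik, at 0.00184 with a log2 fold change of 0.30. It measured 52.2, 54.1 and 53.2 CPM in control against 64.2, 44.4 and 66.9 CPM in HSPA1A libraries, so replicate 2 lay on the other side of the controls. Of the 14 members, 9 had only HSPA1A replicates 1 and 3 outside the control range on one side, and 5 (Trp53cor1, RP24-328P2.5, Gm6634, Neat1 and Gm867) had all 3. The 14 were called by comparing replicates 1 and 3 with the controls, so that these lay outside was nearly fixed by the choice. Without that choice, 23.1% of members and 26.8% of all tested genes had only replicates 1 and 3 outside on one side. The split among all genes called without replicate 2 was not counted.

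**Figure D5:**
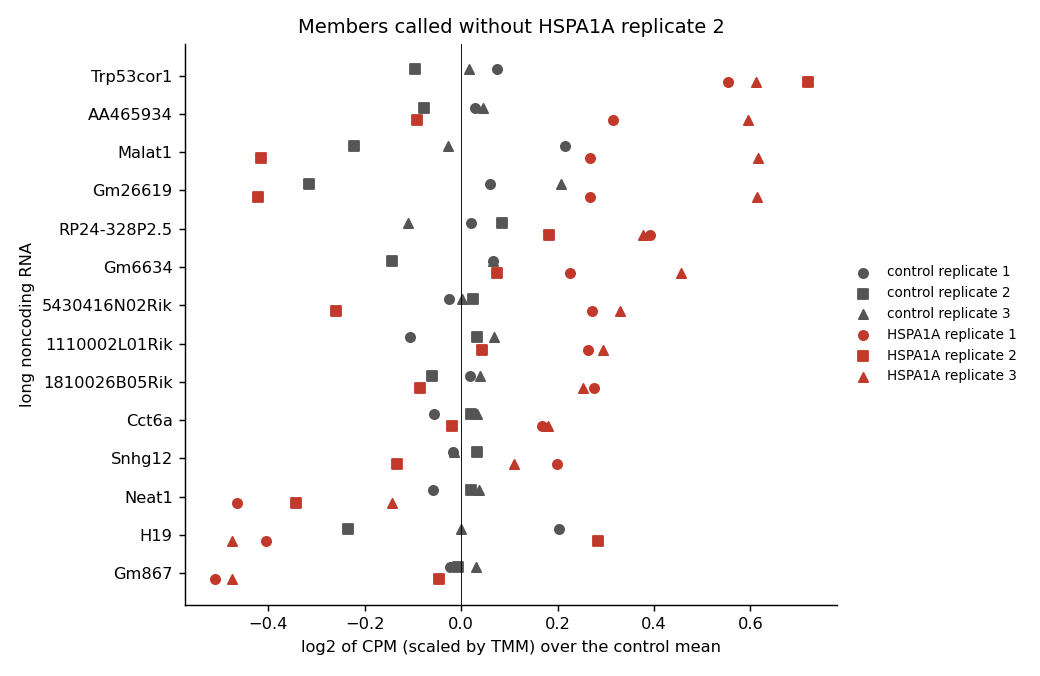
Level in each library of the 14 members called without HSPA1A replicate 2, as log2 of CPM over the control mean, drawn as in the plot of the 12 members. The red squares of replicate 2 lie among or beyond the controls for Malat1, Gm26619, 5430416N02Rik and H19, and with the other HSPA1A libraries for Trp53cor1 and Neat1.

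Long noncoding RNAs are often described by the gene beside them, so each member was set beside its nearest coding gene. Of 159 pairs in which that gene was tested, 0 had a nearest gene called in edgeR's quasi-likelihood test, and no member lay within 100 kb of a called gene. Across these pairs the log2 fold changes had a Pearson r of -0.01 (0.17 over the 19 head-to-head pairs and 0.05 over the 59 pairs that overlap on opposite strands). The pairs come from the same 6 libraries, and genes are not independent replicates. The member Gm14005, known as an RNA that holds down the cell death gene Bcl2l11 in myeloid cells, lies 15772 bases from that gene. Gm14005 measured 8.89 ± 0.64 CPM in control against 9.02 ± 0.96 CPM in HSPA1A libraries (SD, n = 3 each), a log2 fold change of 0.02, while Bcl2l11 had -0.45 with an unadjusted p of 0.000309 in the edgeR fit.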

How the data were processed

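Polyadenylated RNA of 6 libraries was sequenced from a stranded kit, per the labels' protocols. The authors deposited whole read counts for 22913 genes, and FPKM for 22833 genes. Tools named in the submitters' processing notes are bcl2fastq, TopHat2 and edgeR, with build GRCm38. The sources used here do not give the read counter, its strand setting or the annotation version.

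Counts were scaled by TMM, filtered with filterByExpr (minimum count 10, minimum total 15, leaving 12827 genes) and compared with edgeR 4.0.16 (quasi-likelihood test, Benjamini-Hochberg adjustment, threshold 0.05, R 4.3.3) without covariates. The common biological coefficient of variation was 0.0688. CPM values are scaled by TMM, except at the limit of 2 CPM, which uses library totals. Alternatives used DESeq2 1.42.0 and limma 3.58.1, the last with voom on the counts and also on log2 of the deposited FPKM plus 1 or 0.1. The fit was tested on simulated data.

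The members and lists were chosen with earlier results of these data known. Named are list members, the highest levels, members with an unadjusted p under 0.05, and members called without HSPA1A replicate 2, with a few others picked after their values were seen. Lists were matched by symbol or GENCODE M21 name. Sequences came from RefSeq tables (GRCm38.p6). Figures used matplotlib.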

Additional observations from a re-analysis of the deposited data

How the results depend on the processing

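The counts of called members, 0 higher and 0 lower, were the same with DESeq2 size factors, library totals, limma-voom, a filter of 5 CPM in 3 libraries, Yam1 as a covariate, FPKM, and membership limits of 1 or 5 CPM, and, chosen after the data were seen, for the 115 members clear of coding exons. The shares of all genes called in these fits are not given here, so these counts do not set the members apart from other genes. With Yam1 as a covariate, Neat1 and Trp53cor1 each had an adjusted p of 0.99945 in edgeR's quasi-likelihood test. Every other member with an unadjusted p under 0.05 in the fit without covariates had the same value, so it is not particular to them. The log2 fold change of Neat1 was -0.28 with the covariate and -0.31 without it, and that of Trp53cor1 was 0.66 and 0.63. DESeq2, and edgeR without a filter on low counts, each called 1 lower (Neat1); the cause was not tested. Leaving out 1 library at a time gave 0 to 11 called higher and 0 to 3 called lower, all calls coming without HSPA1A replicate 2. The members' median log2 fold change, 0.044, ranged from 0.020 to 0.066 over those fits. On library totals and in FPKM the medians of the members and of all genes were both lower. They were 0.0080 (all genes -0.033) on library totals, -0.0093 (-0.0099) in FPKM plus 1 and -0.016 (-0.040) in FPKM plus 0.1. In FPKM plus 1 with a mean FPKM of at least 1 they were -0.0076 (-0.049), against 0.0029 for all genes as first given. The gap between members and all genes was 0.041 as first given, on library totals and with the FPKM minimum. It was 0.00057 in FPKM plus 1 and 0.024 in FPKM plus 0.1, where all genes are 22833 and not the 12827 tested. With a replicate block 0 members were called higher and 0 lower, and the median was 0.041. Same-numbered deviations from the group means correlated at -0.14, -0.03 and 0.10, and differently numbered ones at -0.10 to 0.13. With 3 libraries per group these values cannot decide whether the shared numbers pair the libraries. The 95% interval lay within a 1.5-fold change either way for 56 of 92 members under 5 CPM and for 101 of 107 at 5 CPM or more.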
